A study of Bos taurus and Bubalus bubalis with 9 samples.

Results

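FABP3, UCP3 and ESRRG are 3 genes of fatty acid use in muscle, and they were chosen by name among the 6191 genes that have a named transcript in the deposited buffalo mRNA values. FABP3 encodes a small cytosolic protein that binds long-chain fatty acids and carries them to the mitochondria and the nucleus. UCP3 encodes a carrier of the inner mitochondrial membrane that is found mainly in skeletal muscle, and whose transcript is known to follow the supply of fatty acids. ESRRG encodes an orphan nuclear receptor that binds the promoters of genes of oxidative metabolism together with PPARGC1A, a coactivator, and that is known from heart and slow muscle fibres. Muscle takes fatty acids up from lipoproteins and blood, activates them to acyl-CoA, moves them into mitochondria and oxidises them, and these steps are switched on together by receptors such as PPARA, PPARD and the oestrogen-related receptors.

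The series compared longissimus dorsi muscle of Xinyang buffalo, labelled as low in intramuscular fat (IMF), with muscle and back subcutaneous fat of Nanyang cattle, labelled as high in IMF. All animals were steers, with weaning at 3 months and castration at 6 months, fattened from 18 months and slaughtered at 30 months of age, and there are 3 libraries each from the muscle of buffalo, the muscle of cattle and the fat of cattle. The buffaloes and the cattle came from different farms, so species and farm cannot be told apart. Transcript levels in FPKM, read fragments scaled to transcript length and to the number of mapped reads of the library, were analysed for the 3 buffalo muscle libraries, and back-splice junction reads of circular RNAs (circRNAs) for all 9 libraries. Levels of linear mRNA in cattle were not analysed here, so the members are compared between buffalo and cattle, and between cattle tissues, through their circRNAs alone. FPKM values carry no read counts, and how many reads a transcript rests on is therefore unknown. From the circRNA values, library totals could be read as 60015033 to 65777231 reads in buffalo muscle and 35712276 to 42265538 reads in the cattle libraries, with 4472 to 6122 junction reads per library in buffalo muscle and 12042 to 27141 in cattle. Muscle and fat of cattle were taken from 3 cattle, but the labels do not say that equal sample numbers mark the same animal.

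Muscle markers were far above adipocyte and liver markers in buffalo muscle. The 20 named transcripts of a list of muscle fibre genes summed to between 88392 and 110758 FPKM per library, although 3 of them, of MYH1 and NEB, were listed at 0. The 14 transcripts of adipocyte genes summed to between 152 and 203 FPKM, most of it from LPL and PNPLA2, which muscle fibres also express, and the 5 transcripts of liver genes to between 0.398 and 2.26 FPKM. In cattle, junction reads of 9 muscle fibre host genes summed to between 28.9 and 38.9 RPM, junction reads scaled to the library total, in muscle and to between 0 and 0.0269 RPM in adipose tissue, and those of 7 adipocyte host genes to between 0.0840 and 0.284 RPM in muscle and between 1.55 and 2.02 RPM in adipose tissue.

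All 3 members were expressed in buffalo muscle, at levels that lay far apart. UCP3 was the highest, FABP3 followed and ESRRG was the lowest, and this order held within each library. UCP3 and FABP3 differed several-fold between animals and in opposite directions, whereas ESRRG differed little between them.

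UCP3 was measured by transcript ENSBTAT00000006918 of gene ENSBTAG00000005259, on chromosome 15 of the cattle genome UMD3.1 from 54213565 to 54224051. Its FPKM was 159, 593 and 826 in buffalo muscle 1, 2 and 3, a mean of 526 ± 339 (SD, n = 3). As log2(FPKM + 1) this is 8.74 ± 1.25. Buffalo muscle 1 stood apart from the other libraries, by 3.73-fold from buffalo muscle 2 and by 5.20-fold from buffalo muscle 3, while buffalo muscle 3 was 1.39-fold above buffalo muscle 2. Among the 19917 listed transcripts, UCP3 ranked 569, 158 and 105 in buffalo muscle 1 to 3. Its mean lay above that of 99.1% of listed transcripts, and its SD lay above that of 98.5% of the 12618 transcripts with a mean FPKM of at least 1.

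FABP3 was measured by transcript ENSBTAT00000022375 of gene ENSBTAG00000016819, on chromosome 2 of UMD3.1 from 122723224 to 122783830. Its FPKM was 101, 75.7 and 32.9 in the same libraries, a mean of 70.0 ± 34.6 (SD, n = 3), which is 6.01 ± 0.83 as log2(FPKM + 1). Here buffalo muscle 3 was the library that stood apart, 3.08-fold below buffalo muscle 1 and 2.30-fold below buffalo muscle 2, and buffalo muscle 1 and 2 differed by 1.34-fold. FABP3 ranked 870, 1010 and 2163 among all listed transcripts. Its SD was larger than that of 96.8% of transcripts with a mean FPKM of at least 1.

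ESRRG was measured by transcript ENSBTAT00000061126 of gene ENSBTAG00000010392, which lies on chromosome 16. Its FPKM was 8.88, 8.55 and 8.84 in buffalo muscle 1 to 3, a mean of 8.76 ± 0.182 (SD, n = 3), or 3.29 ± 0.027 as log2(FPKM + 1). The highest and the lowest library differed by 1.04-fold. ESRRG ranked 6280, 6319 and 6103, and its SD was larger than that of only 1.85% of transcripts with a mean FPKM of at least 1. This small spread depends on the scaling. Summed FPKM was 1186999 in buffalo muscle 1, above 1000417 and 991636 in the others, and with each library scaled to the same sum ESRRG differed by 1.19-fold, with an SD of 0.117 that was larger than that of 21.4% of transcripts. With that scaling the SD was 1.40 for UCP3 and 0.728 for FABP3, so ESRRG varied least and UCP3 most of the members under both scalings.

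**Figure D1:**
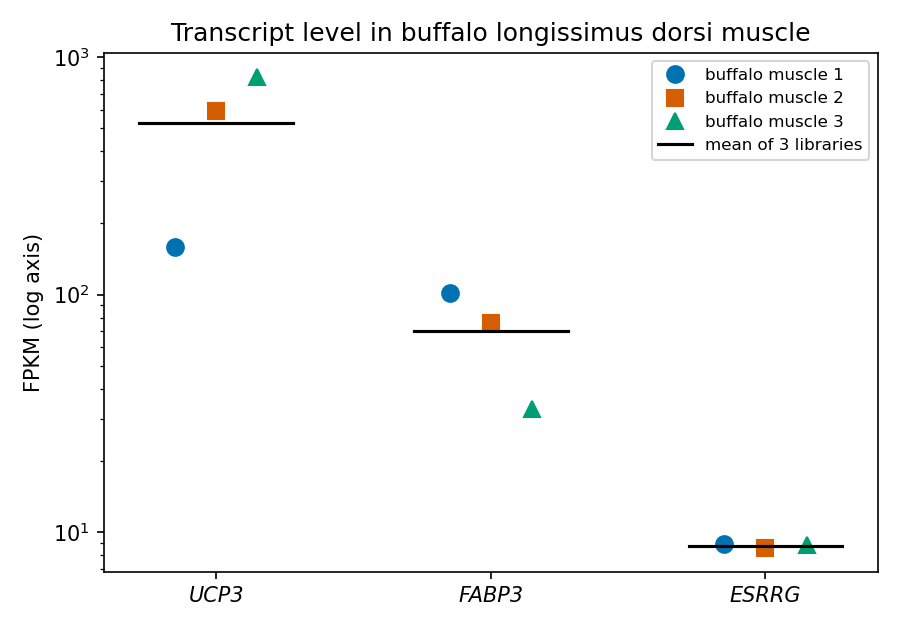
FPKM of UCP3, FABP3 and ESRRG in each of the 3 buffalo muscle libraries, on a log axis, with a bar at the mean of the 3 libraries. UCP3 runs from 159 to 826, FABP3 from 32.9 to 101 and ESRRG from 8.55 to 8.88, and the ranges of the 3 genes do not overlap.

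FPKM is scaled to transcript length, and the members were set against each other within a library on that scale. How well buffalo reads align to each cattle transcript can differ between genes and was not tested. UCP3 was 1.57-fold, 7.83-fold and 25.1-fold above FABP3 in buffalo muscle 1, 2 and 3. The lowest UCP3 value, 159, was above the highest FABP3 value, 101, so both genes kept their order in 3 of 3 libraries although their ratio changed widely. The difference of log2(FPKM + 1) between UCP3 and FABP3 was 2.74 ± 1.99 (SD over 3 libraries). FABP3 was 11.4-fold, 8.85-fold and 3.72-fold above ESRRG in buffalo muscle 1 to 3, a log2 difference of 2.72 ± 0.83. UCP3 was 17.9-fold, 69.3-fold and 93.4-fold above ESRRG. With 3 libraries of one group, none of these differences was tested.

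Each member has relatives of the same protein family among the named transcripts, and in each pair the member was the higher one in 3 of 3 libraries. FABP4, the fatty acid binding protein of adipocytes, had an FPKM of 3.97, 8.20 and 7.99 in buffalo muscle 1 to 3, and FABP3 was 25.5-fold, 9.23-fold and 4.12-fold above it. FABP4 and FABP3 did not vary together, since buffalo muscle 1 had the lowest FABP4 and the highest FABP3. Of the 8 adipocyte marker transcripts with a mean FPKM of at least 1, FABP4 included, 5 were lowest in buffalo muscle 1 and 2 were highest there. Of all transcripts at that level, 31.0% were lowest and 43.2% highest in this library, all as deposited. ADIPOQ, for example, had 0.776, 7.40 and 5.77 FPKM and PPARG 4.13, 1.77 and 2.83 FPKM in its main transcript, so the adipocyte markers did not share 1 order of libraries. ADIPOQ, FABP4 and LPL were highest in buffalo muscle 2 and lowest in buffalo muscle 1, as were PLIN1 and CIDEC with means under 1 FPKM. PCK1, also under 1 FPKM, was lowest in buffalo muscle 1, whereas PDE3B was highest there. UCP2, the uncoupling protein of many tissues, had 6.28, 3.92 and 4.40 FPKM, and UCP3 was 25.3-fold, 151-fold and 188-fold above it. ESRRB, the closest relative of ESRRG, had 3.35, 2.37 and 1.07 FPKM, below ESRRG by 2.65-fold, 3.61-fold and 8.29-fold.

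A search over all transcripts for the most constant ratio to FABP3 gave ESRRB, which was low, at 1.07 to 3.35 FPKM. Its ratio to FABP3 varied least among the 12520 transcripts compared, with an SD of the log2 ratio of 0.041 over 3 libraries. PDK4, the kinase that switches off pyruvate dehydrogenase and so spares glucose when fatty acids are burnt, had 1642, 1105 and 515 FPKM and was 16.2-fold, 14.6-fold and 15.7-fold above FABP3, with an SD of the log2 ratio of 0.077, which ranked 10 of 12520. Both were singled out after their values had been seen, and no test was made of them. PDK4 ran against UCP3. It was above UCP3 by 10.3-fold and 1.86-fold in buffalo muscle 1 and 2, while in the third library UCP3 was the higher one by 1.60-fold.

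A wider list of 68 genes of fatty acid use was set beside the members, and 43 of them have a named transcript, 50 transcripts in all. Names were found only for genes that host a circRNA or that the study lists as different between buffalo and cattle, so the named part is not a random sample of the pathway. Together with the members there were 53 transcripts, in which UCP3 ranked 2 by mean FPKM after PDK4, FABP3 ranked 14 and ESRRG 39. Of the 50, 46 had a mean FPKM of at least 1. Their highest and lowest libraries differed by a median of 1.40-fold, beside 1.34-fold for all 12618 transcripts at that level and 1.31-fold for those with a name. They differed by at least 2-fold in 10 of 46 (21.7%), beside 14.3% of all and 10.8% of named transcripts. UCP3 and FABP3 thus belonged to the variable part of this list, and among the 49 listed and member transcripts at that level only 1, of ACSL3, had a smaller SD than ESRRG, a number that became 7 with libraries scaled to the same sum.

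Of the 12 beta-oxidation transcripts with a mean FPKM of at least 1, 0 differed by 2-fold between libraries, beside 10.8% of named transcripts, and their median was 1.22-fold, beside 1.31-fold for named transcripts. These values lie near each other, and no difference was tested. Among them are the acyl-CoA dehydrogenases ACADM, ACADL and ACADVL, HADH, the trifunctional protein subunits HADHA and HADHB, the auxiliary enzymes ECI1 and DECR1, and ETFA, ETFB and ETFDH, which pass the electrons on. HADHA, for example, had 92.2, 100 and 94.8 FPKM and ACADVL 161, 170 and 134 FPKM. FABP3 lay within the range of these levels, and the UCP3 values of buffalo muscle 2 and 3 lay above all of them. For uptake, LPL, which releases fatty acids from lipoproteins, had 92.0, 129 and 98.1 FPKM, and the lipoprotein receptor VLDLR 76.4, 59.9 and 59.4 FPKM. Of the genes for activation and entry into mitochondria, the acyl-CoA synthetases ACSL1, ACSL3 and ACSL4 differed by at most 1.31-fold, CPT1B by 1.60-fold and ACACB, whose product inhibits CPT1, by 1.99-fold. Of the 2 ACSL5 transcripts, one was near 0 in buffalo muscle 3 and the other in buffalo muscle 1, and how reads were divided between such isoforms was not tested. Transcripts of the lipid droplet genes PNPLA2, MGLL, PLIN2 and PLIN5 with a mean FPKM of at least 1 stayed within 2-fold, and LIPE differed by 2.03-fold at a mean of 1.98 FPKM. PDK2 differed by 1.39-fold in its main transcript.

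The regulators are the group to which ESRRG belongs, and they held 5 of the 10 transcripts of the list with at least 2-fold. Of 15 regulator transcripts with a mean FPKM of at least 1, 10 were highest in buffalo muscle 1, the library with the highest FABP3 and the lowest UCP3. Of all transcripts at that level, 43.2% were highest in this library. PPARGC1A, the coactivator of ESRRG and of the PPARs, had 105, 29.3 and 26.3 FPKM in its main transcript, 3.98-fold between the extremes. PPARA, the receptor that senses fatty acids, had 101, 52.5 and 48.5 FPKM, and RXRG, a partner of the PPARs, 23.6, 7.0 and 9.30 FPKM. PPARD had 29.8, 15.7 and 16.1 FPKM. Of the other regulators, NCOA2, NCOR1, NRIP1, PRKAA1, PRKAA2, RXRA, NRF1 and GABPA differed by at most 1.66-fold in their main transcripts. ESRRG, at 1.04-fold, had a smaller difference than the 15 other regulator transcripts as deposited, but 3 of them had a smaller one than its 1.19-fold with libraries scaled to the same sum. Of 17 muscle fibre transcripts with a mean FPKM of at least 1, 11 were highest in buffalo muscle 1. A further 5 were highest in buffalo muscle 3, and 1 in buffalo muscle 2. Summed FPKM was also highest in buffalo muscle 1, at 1186999 beside 1000417 and 991636. These counts of regulator and muscle fibre transcripts depend on that scaling, and they were not repeated with libraries scaled to the same sum. Of the 17, 10 were lowest in buffalo muscle 2 and 6 in buffalo muscle 3, beside 31.3% and 37.6% of all transcripts at that level. As deposited, neither the slow nor the fast fibre genes named here shared 1 full order of libraries. The fast genes named were lowest in buffalo muscle 2 and the slow genes named in buffalo muscle 3. Their orders with libraries scaled to the same sum were not examined. Of the slow genes, MYH7 had 4373, 3105 and 3015 FPKM and MYL2 5913, 6204 and 4776 FPKM. Of the fast genes, MYBPC2 had 2206, 1746 and 2128 FPKM and TNNI2 5327, 3818 and 6265 FPKM. The part of fibre type, adipocytes or library composition in the differences of UCP3 and FABP3 was not tested. Fewer cells of a type and less RNA per cell cannot be told apart in these bulk samples.

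**Figure D2:**
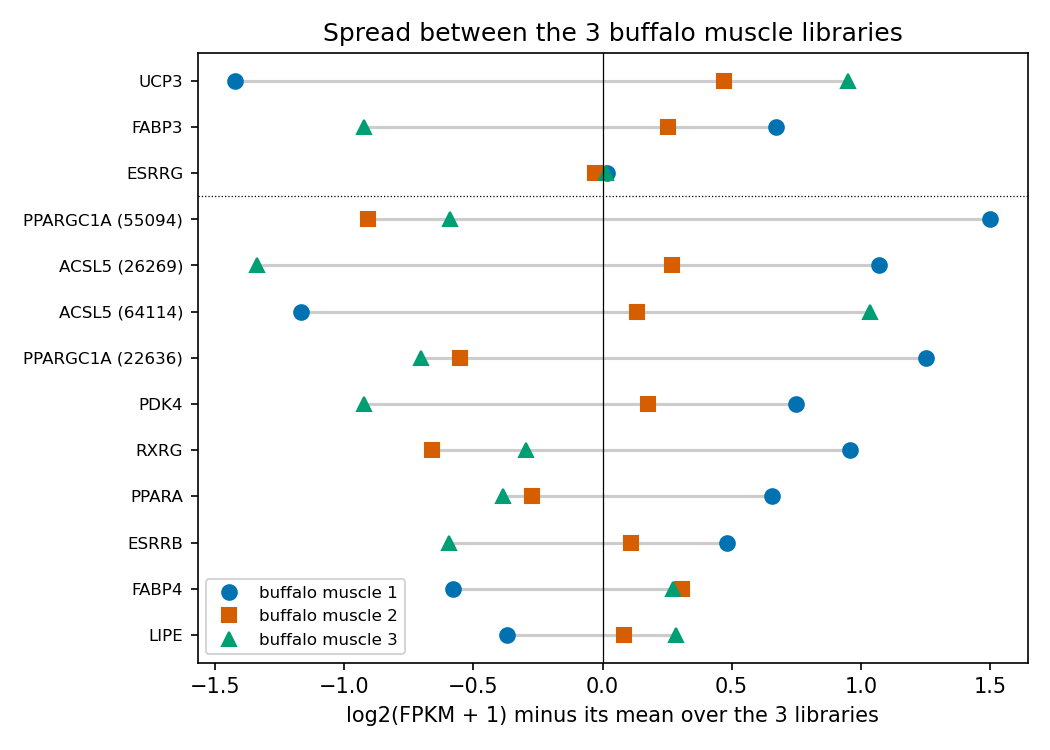
Deviation of each buffalo muscle library from the mean of log2(FPKM + 1) over the 3 libraries, for the members above the dotted line and below it for the 10 transcripts of the fatty acid use list with at least 2-fold between the highest and the lowest library; the last 5 digits of the transcript identifier tell isoforms apart. The order of FABP3 is that of 11 of the 46 list transcripts and 24.2% of all transcripts with a mean FPKM of at least 1, the reverse order of UCP3 that of 8 of the 46 and 16.1% of all, and the ESRRG points, as deposited, nearly coincide.

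**Figure D3:**
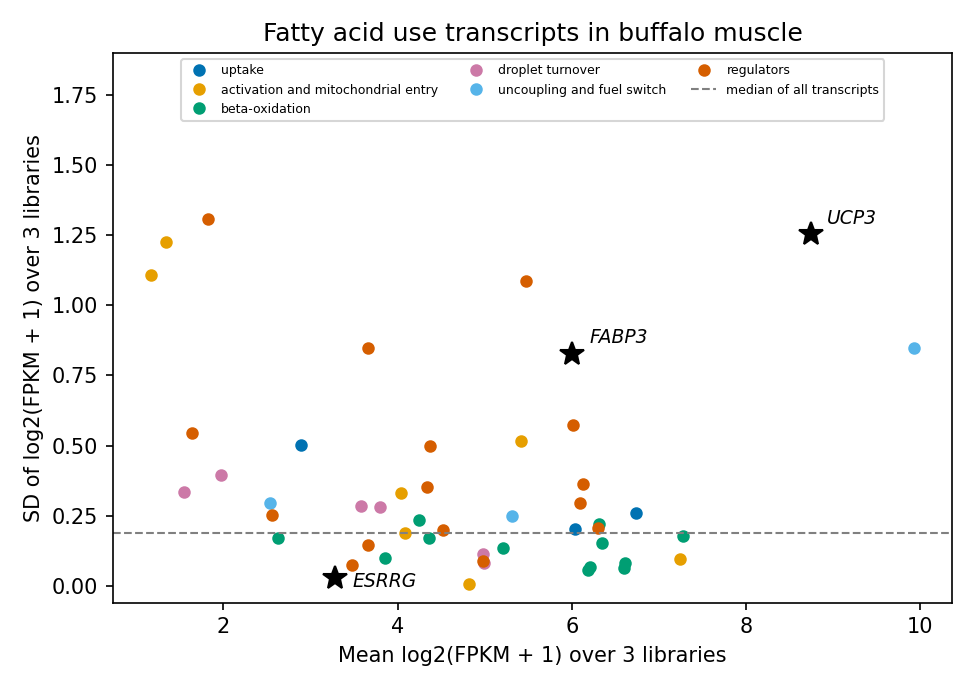
SD of log2(FPKM + 1) over the 3 buffalo muscle libraries against its mean, for the members (stars) and the 46 transcripts of the fatty acid use list with a mean FPKM of at least 1 (dots, coloured by role), with a dashed line at the median SD of all transcripts, 0.187. UCP3 lies high on both axes, FABP3 above most of the list, and ESRRG at the bottom with an SD of 0.027.

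The named transcripts nearest to each member over the 3 libraries were found by the Euclidean distance of log2(FPKM + 1) among 6794 candidates. This distance counts level as well as course, so it also depends on how many transcripts lie at the level of the member. Those nearest to ESRRG were ELF1 at a distance of 0.025, FAM126A at 0.042 and INTS10 at 0.044. Those nearest to FABP3 were GRB10 at 0.418, CDKN2AIPNL at 0.495 and MYL6B at 0.556. UCP3 had no neighbour as near as these in level and course. Its nearest transcripts were MDH1 at 1.61, FBP2 at 1.64 and SLC16A6 at 1.66, and none of these shared its low value in buffalo muscle 1 to the same extent. MDH1, for instance, had 352, 448 and 395 FPKM.

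A circRNA arises when a downstream splice site is joined to an upstream one of the same transcript, and a read across that junction counts it. The circRNA values carried little signal for the members. ESRRG gave 6 junction reads in cattle muscle, FABP3 gave 1, and UCP3 gave none in any of the 9 libraries. No junction read of the members was found in cattle adipose tissue or in buffalo muscle.

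ESRRG gave rise to 2 circRNAs in cattle, both exonic and on the minus strand of chromosome 16 of UMD3.1. The first runs from 20761747 to 20789308, and had 1, 1 and 3 reads in cattle muscle 1 to 3. The second runs from 20658211 to 20662568, and had 1 read in cattle muscle 2. Summed over both, ESRRG had 0.0265, 0.0473 and 0.0840 RPM in cattle muscle 1 to 3, a mean of 0.0526 ± 0.0291 RPM (SD, n = 3), and no reads in 3 adipose libraries. The limit that a count of 0 allows, 3 reads per library, corresponds to 0.0772 to 0.0814 RPM in adipose tissue, and the ESRRG values of cattle muscle 1 and 2 lie under it. Over the libraries of a group, ESRRG made up 0.00930% of the 64482 junction reads in cattle muscle, above the 0.00635% that 0 of 47255 reads allows in adipose tissue. The pooled share thus lay above the limit, while single libraries did not all do so. That share rests on 6 reads, and its own counting error was not set beside the limit, so no tissue difference is drawn from it. These limits cover counting error only.

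As a single value, the summed ESRRG circRNAs differed by 0.07 in mean log2(RPM + 1) between cattle muscle and adipose tissue, with no overlap of the groups. The exact two-sided permutation test over 20 arrangements gave p = 0.1, the smallest it can give for 3 against 3. The test was also run for FABP3, where the exact p was 1. Groups that do not overlap were found for 10.4% of all 4720 host genes, and for 6.14% with the higher values in muscle. The main ESRRG circRNA did not overlap between the tissues either, as was the case for 3.94% of all 18535 circRNAs in cattle, and for 2.53% with the higher values in muscle. No ESRRG or FABP3 circRNA, and neither host sum, reached the 2 reads in 3 of 6 libraries that were required for the test across all features, in which limma called 3.23% of 1917 circRNAs, 3.08% higher and 0.156% lower in muscle. Without that filter, limma gave an adjusted p of 0.451 for the ESRRG sum and 0.576 for its main circRNA. Reads in every cattle muscle library and in no adipose library were found for 105 of the 4720 host genes.

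FABP3 gave 1 exonic circRNA on the plus strand of chromosome 2, from 122726819 to 122782049, with a single read in cattle muscle 3. This junction spans 55231 bases, nearly the whole extent of the annotated transcript. Whether this transcript model, as annotated in UMD3.1, holds sequence beyond FABP3 was not tested, and this limit applies to its FPKM as well. For UCP3, the limit for a count of 0 was 0.0710 to 0.0840 RPM in cattle muscle and 0.0456 to 0.05 RPM in buffalo muscle, where the linear UCP3 transcript was among the 569 highest in each library.

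None of the 3 junctions of the members in cattle was found in buffalo, with identical ends or with both ends within 5 bp. Buffalo muscle held 15890 junction reads in all, against 64482 in cattle muscle. In cattle muscle, ESRRG made up 0.00930% of junction reads, whereas a count of 0 in buffalo muscle allows up to 0.0189% of them, both pooled over the 3 libraries. Pooled in the same way per library total, the 6 reads were 0.0518 RPM in cattle muscle, and a count of 0 in buffalo muscle allows up to 0.0158 RPM. The value in cattle was thus under the buffalo limit as a share of junction reads and above it as RPM. Neither comparison takes in the counting error of the 6 reads. Whether ESRRG circRNAs were fewer in buffalo muscle than in cattle muscle depends on this scale, and it was not tested. The buffalo and cattle values come from separately made tables, with buffalo reads aligned to the cattle genome, and they were set side by side without a test.

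**Figure D4:**
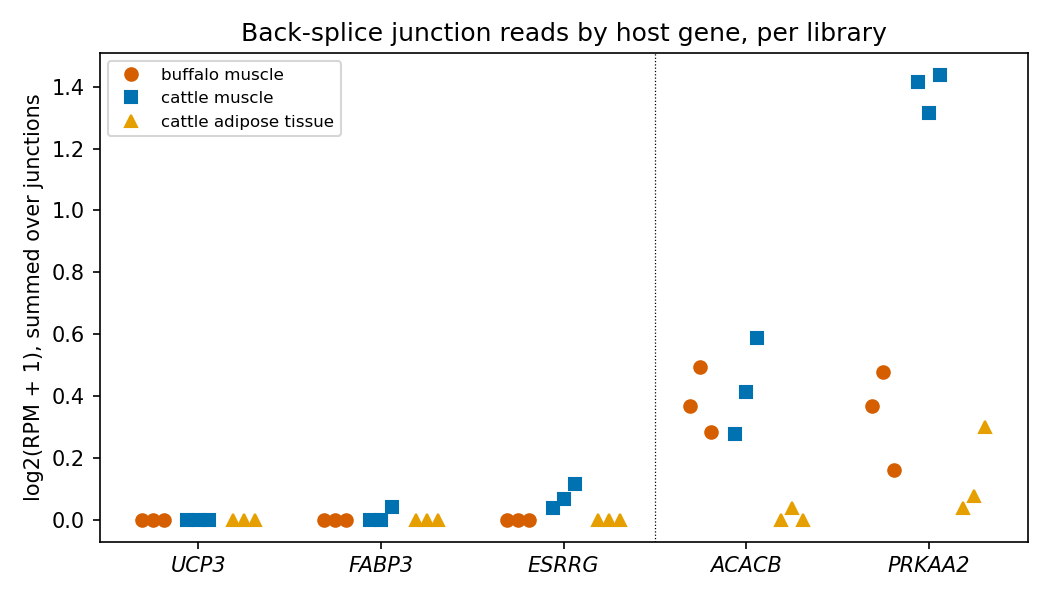
Junction reads summed per host gene, as log2(RPM + 1), in each library, grouped by tissue and species, for the members and, right of the dotted line, for ACACB and PRKAA2. UCP3 is at 0 throughout, FABP3 above 0 in 1 library and ESRRG above 0 in the 3 cattle muscle libraries, all far below PRKAA2 in cattle muscle.

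Other genes of fatty acid use show the level that circRNAs reached in the same libraries. Of the 68 genes of the list, 14 passed the filter on reads as host genes, and limma with Benjamini-Hochberg adjustment called 2 of the 14, both higher in cattle muscle than in adipose tissue, where 3.83% of 1829 host genes were called in either direction, 2.95% as higher and 0.875% as lower in muscle. The median log2 difference of the 14 was 0.07, beside 0.00 for all host genes tested. PRKAA2, a catalytic subunit of AMP-activated kinase, which turns on fatty acid oxidation, had 1.67, 1.49 and 1.71 RPM in muscle and 0.0271, 0.0538 and 0.232 RPM in adipose tissue (log2 difference 1.25, SE 0.08, adjusted p = 0.000578 by limma). ACACB had 0.212, 0.331 and 0.504 RPM in muscle and 0, 0.0269 and 0 RPM in adipose tissue. Its log2 difference was 0.41 (SE 0.09, adjusted p = 0.0491 by limma). It passed the filter through the muscle libraries alone, with 8, 14 and 18 reads there and 0, 1 and 0 in adipose tissue. The call of ACACB was lost with any one adipose library left out (adjusted p = 0.0854 to 0.159 by limma). It was also lost without the filter (0.120) and with the replicate number as a block (0.0605). With a muscle library left out, ACACB was not tested. The highest of the hosts that were not called were ACSL3, HADHA and PPARGC1A, with adjusted p-values of 0.23, 0.0944 and 0.170 by limma. PPARGC1A had 8, 8 and 9 reads in cattle muscle 1 to 3, where ESRRG had 1, 2 and 3. In buffalo muscle, PRKAA2 had 0.289, 0.393 and 0.117 RPM and ACACB 0.289, 0.408 and 0.217 RPM, so host genes of this list could be counted there, while the members had no read. The circRNAs nearest to the main one of ESRRG over the 6 cattle libraries, of ORC2, WNK1 and GPATCH8, rest on 5 or 6 reads each, and the first 2 have the same reads in every library, which at these counts says little.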

How the data were processed

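Total RNA of longissimus dorsi muscle and back fat was sequenced by the authors on an Illumina platform. Per the labels and the methods of the study, reads were trimmed (Trim Galore), mapped with STAR against UMD3.1, a genome build of cattle, and assembled by Cufflinks (version 2.2.1). The mRNA values deposited by the authors are FPKM per transcript and library, computed with Cuffdiff on the linear scale. The circRNA values deposited by the authors are RPM per back-splice junction; the circRNA caller is not given in the sources used here. In every circRNA column used, 100% of values above 0 were whole multiples of 1 step (tolerance 0.01 reads), which was taken as 1 read. Buffalo reads were aligned to the genome of another species, which can lower the values of diverged transcripts. The 9 columns of buffalo adipose tissue belong to another series and were not used, nor were the lncRNA values, which carry neither gene names nor positions. Of 19917 transcripts, the circRNA tables and the published lists of the study gave names to part, used here for identifiers and positions only.

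Values were analysed as log2(FPKM + 1) and log2(RPM + 1). Cattle muscle and adipose tissue were compared with limma (version 3.58.1, R 4.3.3) per circRNA and per host gene, over features with at least 2 reads in at least 3 of 6 libraries. Adjustment was by Benjamini-Hochberg, and calls were made below 0.05. As alternatives, the pseudocount was set to 0.1, the filter was dropped or raised to 5 reads, replicate numbers entered as a block, edgeR (4.0.16) and DESeq2 (1.42.0) were run on recovered reads, and each library was left out. The fits were also tested on simulated data, whose outcome is not reported here. Genes named are the members, the genes of the fatty acid use list with a transcript (some are not reported here), called hosts and the 3 highest not called, and the 3 nearest features; family members and marker genes named beside them, and the ratios to PDK4 and ESRRB, were chosen after their values were seen. The members and lists were chosen with earlier results of these data known.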

Additional observations from a re-analysis of the deposited data

How the results depend on the processing

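The mean levels in buffalo muscle kept the order UCP3, FABP3 and ESRRG under the other pseudocount and the scaling to equal sums. UCP3 went from 8.74 to 8.74 and 8.66, and FABP3 from 6.01 to 5.98 and 5.93. These shifts were under the SDs of 1.25 and 0.83. At these levels such settings can hardly move a mean by that much, so the comparison with the SD says little. The level of ESRRG, 3.29 with an SD of 0.027 (0.117 with libraries scaled to the same sum), became 3.15 with a pseudocount of 0.1 and 3.22 with that scaling. With each library left out in turn, the mean of log2(FPKM + 1) ran from 8.27 to 9.45 for UCP3, from 5.67 to 6.47 for FABP3 and from 3.28 to 3.30 for ESRRG, and the difference of UCP3 and FABP3 from 1.80 to 3.78. The mean RPM of ESRRG circRNAs in cattle muscle ran from 0.0369 to 0.0657. The number of circRNAs called between cattle muscle and adipose tissue, 62 (59 higher and 3 lower in muscle), became 123 with a pseudocount of 0.1, 36 without filter, 163 with edgeR and TMM (136 higher and 27 lower), 113 with edgeR without TMM, 115 with DESeq2, and 16 to 50 with a library left out. For host genes, 70 calls became 126, 35, 161, 119 and 117 in the same order, and 24 to 45 with a library left out. Of the fatty acid use hosts, 2 were called, but 1 without filter, 1 with a library left out, and 4 with edgeR and TMM. The labels do not say that the replicate number pairs the libraries, and the data do not settle it. Correlations of deviations were 0.215, 0.176 and -0.0217 for equal numbers 1 to 3, and -0.222 to 0.0535 for unequal numbers. Numbers 1 and 2 thus gave higher values than any unequal numbers, and number 3 did not. With the replicate block, 86 circRNAs, 69 host genes and 1 host of the list, PRKAA2, were called. PRKAA2 passed the threshold in 13 of 13 alternatives and ACACB in 5 of the 10 in which it was tested. The cause of these shifts was not tested. The circRNAs of the members rest on 7 reads in all.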
